A study of Homo sapiens with 4 samples.

Results

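The alpha and beta tubulin genes encode the proteins that pair into the building block of microtubules. The 10 genes described here were chosen by symbol and matched to the Ensembl gene IDs of the deposited tables: the alpha genes TUBA1A, TUBA1B, TUBA1C and TUBA4A, and the beta genes TUBB, TUBB2A, TUBB2B, TUBB3, TUBB4B and TUBB6. All 10 were found among the 25798 gene IDs measured, and they hold 68 of the 107429 rows of the tables. The cells were SW1990, an established human pancreatic adenocarcinoma line with no genetic change named in the labels. There were 2 RNA sequencing libraries made after 48 h in 100 nM erianin, a bibenzyl compound from Dendrobium orchids, and 2 control libraries made after the same time in DMSO, the solvent. Each group is this 1 cell line at 1 dose and 1 time. Nothing in the labels says that the libraries came from separate cultures, so p-values here reflect no more than how far these libraries vary, and that variation may be technical.

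Microtubules grow and shrink by the addition and loss of alpha and beta tubulin dimers, and human cells draw these from several isotypes that differ most in their acidic tails. Erianin binds tubulin, and compounds that take apart microtubules through the colchicine site raise the pool of free dimers. In a known feedback loop, TTC5 recognises the first residues of tubulin as they leave the ribosome, and with SCAPER it brings in the CCR4-NOT deadenylase, which destroys the tubulin mRNA. The question put to the tables was whether the tubulin mRNAs stood lower, in sum or one by one, in the libraries of erianin-treated cells.

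The residues that the feedback loop reads are encoded at the very start of the coding region. The first 24 coding bases are therefore shown, with the first 4 codons in capitals. The sequences are from GENCODE release 29 on GRCh38. Among the 10 genes there were 6 versions of these 4 codons, and 1 gene stands for each version. Within a class the versions differ in bases and not in the residues encoded. These are Met-Arg-Glu-Cys in all the alpha genes and Met-Arg-Glu-Ile in all the beta genes. TUBA1A and TUBA1C have the codons of TUBA1B, TUBB4B has those of TUBB, and TUBB6 has those of TUBB3.
TUBA1B: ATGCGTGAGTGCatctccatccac
TUBA4A: ATGCGTGAATGCatctcagtccac
TUBB: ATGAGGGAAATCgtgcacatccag
TUBB3: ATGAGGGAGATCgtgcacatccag
TUBB2A: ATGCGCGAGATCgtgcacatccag
TUBB2B: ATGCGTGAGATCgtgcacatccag
These bases lie at chr6:30720507-30720530 (plus strand) for TUBB, chr16:89923402-89923425 (plus strand) for TUBB3, chr6:3157440-3157463 (minus strand) for TUBB2A and chr6:3227520-3227543 (minus strand) for TUBB2B. In the alpha genes they are joined across the first coding intron, in the minus-strand genes TUBA1B at chr12:49127782-49131397 and TUBA4A at chr2:219249711-219278170.

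The coding ends of TUBB2A and TUBB2B, the closest pair of beta genes, are an example of how alike such copies are. Bases outside the coding sequence were not compared. Their last 63 coding bases, stop codon included, are given with the last codon before the stop in capitals.
TUBB2A: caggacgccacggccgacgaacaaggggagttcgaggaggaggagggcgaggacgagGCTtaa
TUBB2B: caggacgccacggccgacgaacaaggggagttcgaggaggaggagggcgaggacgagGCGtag
They lie at chr6:3153863-3153925 (minus strand) for TUBB2A and chr6:3224751-3224813 (minus strand) for TUBB2B. The 2 ends differed at 2 of these bases. In TUBA1A and TUBA1B the last 63 coding bases were the same. Over the whole coding sequence TUBA1A and TUBA1B differed at 38 bases, TUBA1B and TUBA1C at 37, and TUBB2A and TUBB2B at 25. Identity between alpha genes was 85.0% to 97.3%, between beta genes 81.2% to 98.1%, and between an alpha and a beta gene 56.7% to 59.9%. How reads that match several copies were shared out is not given in the sources used here, and so the split within TUBA1A, TUBA1B and TUBA1C and within TUBB2A and TUBB2B is uncertain, and their sums are given too.

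The tables held 63336545 and 59923935 counts in the erianin libraries and 63254725 and 60798427 in the DMSO libraries. Counts are given as CPM, which are relative to library size after scaling by TMM, an edgeR factor that aligns the bulk of genes between libraries. Of 17090 genes tested by edgeR's quasi-likelihood test, 7 passed a Benjamini-Hochberg adjusted p of 0.05, 2 higher and 5 lower. The keratins that mark ductal adenocarcinoma cells were abundant, for example KRT8 with 5639 and 6533 CPM in erianin libraries, against 5249.7 and 5428 CPM in DMSO libraries, while EPCAM stayed between 2.39 and 6.04 CPM. The summed CPM of 8 fibroblast markers was 11.4 and 14.4 in erianin libraries, against 39.0 and 13.7 in DMSO libraries, so DMSO replicate 1 stood apart; blood markers summed to under 1 CPM in each library and endothelial markers to at most 1.30 CPM. The difference between erianin and DMSO libraries also moved with GC content, by 0.18 log2 units per 10 percentage points, and it did so more in erianin replicate 2 (0.27 against the DMSO mean) than in erianin replicate 1 (0.09).

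SW1990 cells expressed all 10 genes, over a 32.3-fold range of mean FPKM, the unit per transcript length and library size in which genes can be compared. TUBB, the most widely expressed beta isotype, led with 932 and 916 FPKM in erianin libraries, against 896 and 935 in DMSO libraries. TUBA1B, the main alpha isotype of dividing cells, had 882 and 907 FPKM in erianin libraries, against 871 and 946 in DMSO libraries. These 2 genes together held 58.9% of the summed FPKM of the 10, and their ranges over the 4 libraries overlapped. The next level was shared by TUBA1C (mean 428 FPKM) and TUBB4B (418 FPKM), a beta isotype of many tissues that also builds cilia, whose ranges overlapped as well. TUBA4A, an alpha isotype prominent in platelets and brain, and TUBB6, a beta isotype of muscle and platelets, followed at 115 and 108 FPKM. TUBB2A averaged 68.3 FPKM and TUBB3, the isotype used as a marker of neurons, 55.8 FPKM. TUBA1A, the main alpha isotype of developing neurons, averaged 51.5 FPKM, within a range that met that of TUBB3, and TUBB2B was lowest at 28.5 FPKM. The only steps of more than 2-fold between neighbours in this order were from TUBA1B to TUBA1C, of 2.11-fold, and from TUBB4B to TUBA4A, of 3.64-fold.

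**Figure D1:**
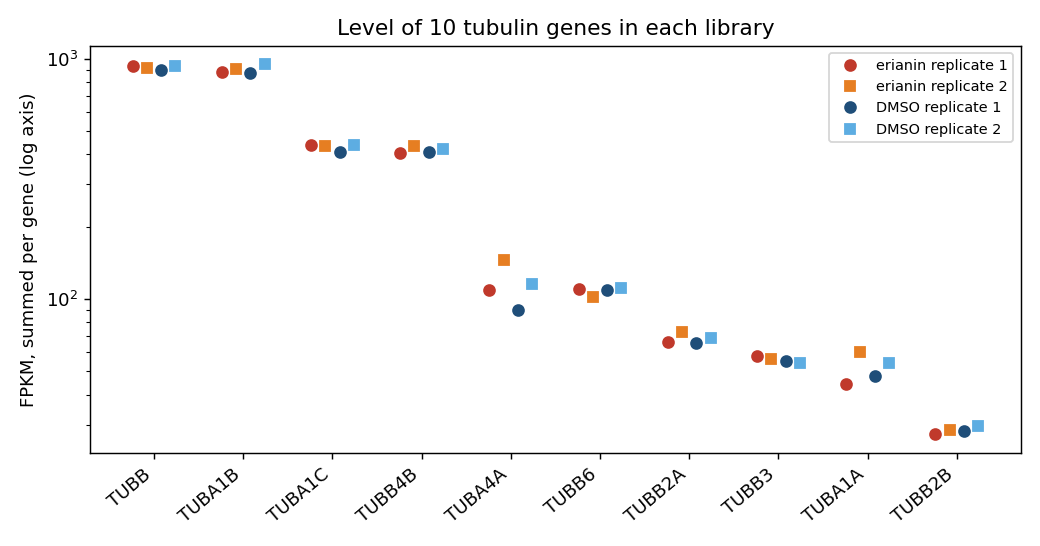
FPKM of each tubulin gene, summed over its rows (log axis), in the 2 erianin and the 2 DMSO libraries; each point is 1 library. TUBB and TUBA1B sit between 871 and 946 FPKM, TUBA1C and TUBB4B between 406 and 437, and TUBB2B lowest at 27.4 to 29.6.

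TUBB3 was measured in these cells although few other neuronal genes were. It had 116 and 127 CPM in erianin libraries, against 108 and 110 CPM in DMSO libraries. The 10 neuronal markers checked summed to 7.40 and 6.50 CPM in erianin libraries, against 8.20 and 9.58 CPM in DMSO libraries, with 4 of the 10 listed in the tables. Of these, SNAP25, a synaptic vesicle fusion protein, had 5.50 and 4.03 CPM in erianin libraries, against 6.71 and 6.91 CPM in DMSO libraries.

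None of the 10 tubulin genes passed the test between erianin and DMSO libraries, and none had an unadjusted p under 0.05. Across all genes tested, 0.0410% passed the adjusted threshold and 8.10% had an unadjusted p under 0.05, 2.21% higher and 5.89% lower. The log2 fold changes were small and above 0 for all 10, with a median of 0.12, while 48.7% of all genes tested were above 0 and their median was -0.01. Among the 1768 genes with a mean of at least 100 CPM, a level that 9 of the 10 tubulin genes reach, the median was 0.14 and the quartiles were 0.06 and 0.19.

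Among the alpha genes, TUBA4A had the largest log2 fold change, 0.24 ± 0.11 (SE; adjusted p = 0.575, edgeR). Its level was 203 and 233 CPM in erianin libraries, against 176 and 194 CPM in DMSO libraries. The groups did not overlap, but erianin replicate 1 exceeded DMSO replicate 2 by little. TUBA1C had 1404 and 1534 CPM in erianin libraries, against 1289 and 1382 CPM in DMSO libraries, also without overlap, and a log2 fold change of 0.14 ± 0.10 (adjusted p = 0.626, edgeR). TUBA1B had 1639 and 1871 CPM in erianin libraries, against 1587 and 1733 CPM in DMSO libraries. TUBA1A had 90.5 and 138 CPM in erianin libraries, against 97.2 and 109 CPM in DMSO libraries. In these last 2 genes erianin replicate 1 lay inside or below the DMSO values and erianin replicate 2 above them. Their log2 fold changes were 0.08 ± 0.11 for TUBA1B and 0.15 ± 0.18 for TUBA1A (adjusted p = 0.788 and 0.767, edgeR).

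The beta genes showed the same small sizes. TUBB had 2690.2 and 2935 CPM in erianin libraries, against 2540.3 and 2659 CPM in DMSO libraries, and a log2 fold change of 0.11 ± 0.10 (adjusted p = 0.673, edgeR). The erianin libraries lay above both DMSO libraries in CPM, but their FPKM overlapped. TUBB3 had a log2 fold change of 0.16 ± 0.10 (adjusted p = 0.595, edgeR), and it was the only member whose groups did not overlap in both CPM and FPKM, with 57.6 and 56.5 FPKM in erianin libraries, against 55.2 and 53.9 FPKM in DMSO libraries. TUBB4B had 736 and 869.9 CPM in erianin libraries, against 724 and 751 CPM in DMSO libraries, where erianin replicate 1 lay between the DMSO values. Its log2 fold change was 0.12 ± 0.11 (adjusted p = 0.682, edgeR). The remaining beta genes differed least. TUBB2A had 130.4 and 142 CPM in erianin libraries, against 129 and 134 CPM in DMSO libraries, for a log2 fold change of 0.05 ± 0.10. TUBB2B had 62.3 and 71.7 CPM in erianin libraries, against 63.1 and 65.0 CPM in DMSO libraries, for a log2 fold change of 0.06 ± 0.12. TUBB6 had 208 and 216 CPM in erianin libraries, against 203 and 212 CPM in DMSO libraries, for a log2 fold change of 0.03 ± 0.09. Their groups overlapped, and their adjusted p-values were 0.857, 0.855 and 0.923 (edgeR).

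In CPM, 4 of the 10 genes (TUBA1C, TUBA4A, TUBB and TUBB3) were higher in both erianin libraries than in both DMSO libraries and 0 of 10 were lower, while of all genes tested 21.7% were higher in this way and 24.4% lower. The 2 erianin libraries were not alike. Against the DMSO mean, the median log2 ratio over the 10 genes was 0.00 in erianin replicate 1, with 5 genes above 0. In erianin replicate 2 it was 0.19, with all 10 above 0. CPM divide counts by library size times the TMM factor. That factor was 0.928 in erianin replicate 2, 1.006 in erianin replicate 1, and 1.04 and 1.03 in DMSO replicates 1 and 2. As a share of all counts, without TMM, the 10 genes held 0.755% in erianin replicate 2 and 0.754% in DMSO replicate 2. Between the DMSO libraries, replicate 2 was above replicate 1 in all 10 genes. Against the mean of both, their medians were -0.03 in replicate 1 and 0.03 in replicate 2, on opposite sides of 0 by construction. Without erianin replicate 1, all 10 log2 fold changes were above 0, the largest being 0.42 for TUBA1A, 0.32 for TUBA4A and 0.23 for TUBB4B. In that fit the lone erianin library is assumed to vary like the DMSO libraries. Without erianin replicate 2, 5 of the 10 log2 fold changes were below 0 and the median was 0.00.

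**Figure D2:**
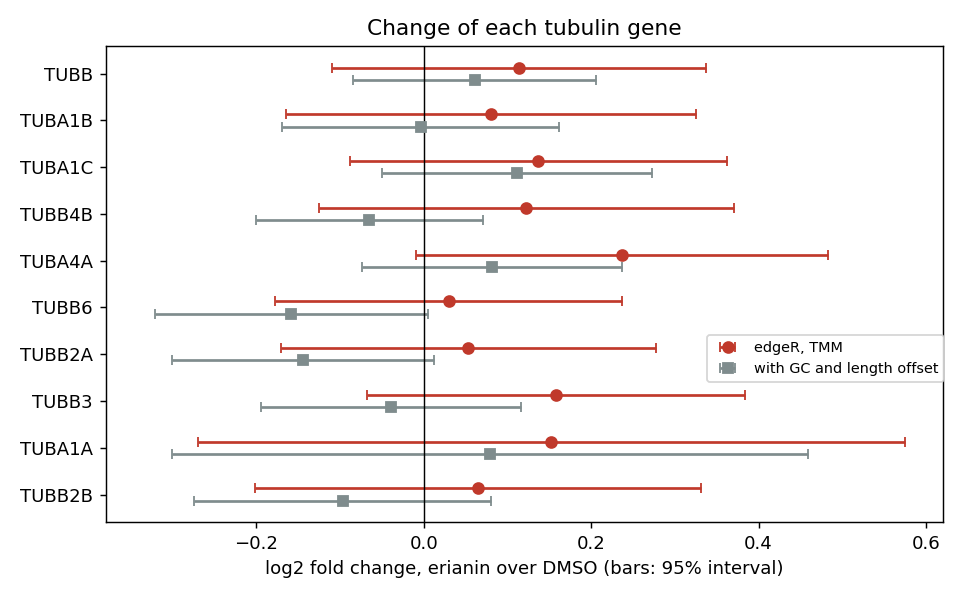
Log2 fold change of each tubulin gene, erianin over DMSO, with its 95% interval (bars), from edgeR on TMM-scaled counts (red circles) and with an offset for GC content and length fitted per library (grey squares). Every interval shown includes 0; the red points run from 0.03 for TUBB6 to 0.24 for TUBA4A, and the grey ones from -0.16 for TUBB6 to 0.11 for TUBA1C.

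The 95% interval of the log2 fold change on the TMM scale reached down to -0.11 for TUBB, -0.16 for TUBA1B, -0.09 for TUBA1C and -0.13 for TUBB4B, the 4 genes with the highest levels. It was widest for TUBA1A, from -0.27 to 0.57, and for TUBA4A it ran from -0.01 to 0.48. Since the fold changes are small, their side of 0 depends on scaling: 4 of the 10 were below 0 with library totals alone, and 6 of the 10 with an offset that takes out how each library varies with GC content and length. With that offset TUBB was at 0.06, TUBA1C at 0.11, TUBA1A and TUBA4A at 0.08 and TUBA1B at -0.00, while TUBB6 was at -0.16, TUBB2A at -0.14, TUBB2B at -0.10, TUBB4B at -0.06 and TUBB3 at -0.04. The lower limits with the offset were -0.08 for TUBB, -0.17 for TUBA1B, -0.05 for TUBA1C and -0.20 for TUBB4B, and they were furthest from 0 for TUBB6 at -0.32, TUBB2A at -0.30 and TUBA1A at -0.30. The median GC content of the 10 genes was 57.4%, and the 1519 genes of 55 to 60% GC had a median of 0.13. The part of this trend in the tubulin values was not tested beyond the fit with the offset.

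**Figure D3:**
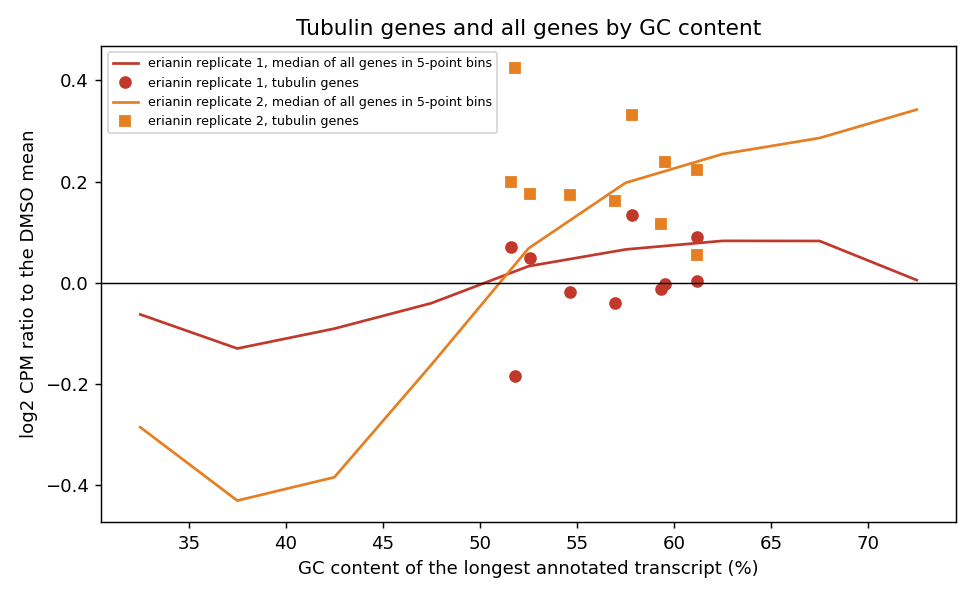
Log2 ratio of CPM to the DMSO mean for each tubulin gene (points) in erianin replicate 1 (red circles) and erianin replicate 2 (orange squares), against the GC content of the longest annotated transcript; lines are medians of all genes in bins of 5 percentage points. In the bin from 55 to 60% GC the median of all genes was 0.07 for the first erianin library and 0.20 for the other.

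The total of each tubulin class differed little between the groups. Alpha tubulin mRNA summed to 3336 and 3776 CPM in erianin libraries, against 3149 and 3417 CPM in DMSO libraries. The groups overlapped, and the difference of mean log2 CPM was 0.11 (exact two-sided permutation p = 0.667, n = 2 each). Beta tubulin mRNA summed to 3944 and 4363 CPM in erianin libraries, against 3769 and 3931 CPM in DMSO libraries. Here the groups did not overlap, with a difference of 0.11 (exact two-sided permutation p = 0.333, n = 2 each), and 0.333 is the smallest p that 2 against 2 libraries can give. As a share of all counts, without TMM, the 10 genes held 0.732% and 0.755% in erianin libraries, against 0.722% and 0.754% in DMSO libraries, and on this scale the groups overlapped.

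Fitted as 1 feature with the whole table, summed alpha tubulin had a log2 fold change of 0.12 ± 0.11 (adjusted p = 0.697, edgeR) with a 95% interval from -0.13 to 0.36. Summed beta tubulin had 0.11 ± 0.10 (adjusted p = 0.693, edgeR) with a 95% interval from -0.12 to 0.34. On the TMM scale with all 4 libraries, these intervals reach down to a loss of 8.51% of summed alpha tubulin mRNA and 7.96% of summed beta tubulin mRNA. The limit rests on the libraries used: the intervals reach down to a loss of 24.997% of alpha and 23.99% of beta without DMSO replicate 1, and of 18.6% of alpha and 20.7% of beta without DMSO replicate 2. Without erianin replicate 1 the summed beta tubulin passed the test, with a log2 fold change of 0.17 (adjusted p = 0.0437, edgeR), while summed alpha tubulin had 0.19 (adjusted p = 0.0531, edgeR). Without erianin replicate 2 the log2 fold changes in the same fit were 0.02 for alpha and 0.04 for beta. With library totals alone they were 0.01 for each class, and with the GC and length offset the differences of mean log2 CPM were 0.05 for alpha and 0.01 for beta. For the close copies, TUBA1A, TUBA1B and TUBA1C summed had a log2 fold change of 0.11 ± 0.11 and TUBB2A and TUBB2B summed had 0.06 ± 0.10 (adjusted p = 0.714 and 0.842, edgeR). The values are those of RNA from the whole culture and are relative to library size. A change in the number of cells or in total RNA per cell is not visible in them.

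The mix of isotypes was close in all 4 libraries. TUBA1B made up 59.9% and 58.8% of alpha tubulin FPKM in erianin libraries, against 61.5% and 61.0% in DMSO libraries. This difference of -1.91 percentage points was without overlap, at the smallest p the design allows (exact permutation p = 0.333, n = 2 each). It was -1.20 percentage points with counts in place of FPKM and -0.70 with the top row of each gene alone. TUBA4A made up 7.41% and 9.39% in erianin libraries, against 6.32% and 7.43% in DMSO libraries. The share of TUBA4A was highest in erianin replicate 2 and otherwise met that of DMSO replicate 2. With the top row of each gene alone the difference in the TUBA4A share turned to -0.41 percentage points, against 1.53 with all rows. TUBA1C made up 27.98% to 29.7% and TUBA1A 2.995% to 3.88% over the 4 libraries.

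Within beta tubulin, TUBB made up 58.3% and 56.9% of the FPKM in erianin libraries, against 57.3% and 57.7% in DMSO libraries. TUBB4B made up 25.4% and 26.95% in erianin libraries, against 26.2% and 26.0% in DMSO libraries. In both genes the DMSO values lay between the erianin values. TUBB2B made up 1.71% and 1.78% in erianin libraries, against 1.81% and 1.83% in DMSO libraries, a difference of -0.08 percentage points without overlap (exact permutation p = 0.333, n = 2 each). With the top row of each gene alone this difference turned to 0.15 percentage points. TUBB6 held 6.35% to 6.97%, TUBB2A 4.14% to 4.51% (a difference of 0.10 percentage points, and -0.13 with counts in place of FPKM) and TUBB3 3.33% to 3.60% over the 4 libraries. Beta tubulin as a whole was 52.1% and 51.1% of alpha and beta FPKM in erianin libraries, against 52.5% and 51.1% in DMSO libraries, a difference of -0.20 percentage points (exact permutation p = 0.667, n = 2 each).

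**Figure D4:**
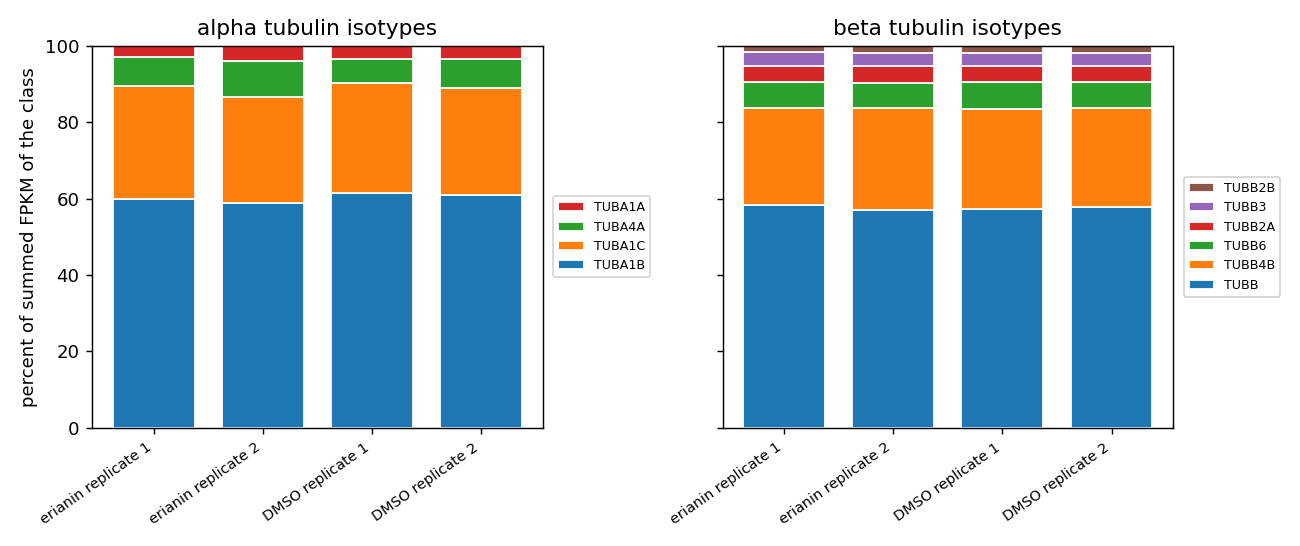
Share of each isotype in the summed FPKM of its class (percent), for alpha tubulin (left) and beta tubulin (right), with 1 bar per library. TUBA1B holds 58.8% to 61.5% of alpha tubulin and TUBB 56.9% to 58.3% of beta tubulin.

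The tables give several rows for most gene IDs, with no transcript name, and the length that count and FPKM imply was used to match rows to annotated transcripts. Of the 68 tubulin rows, 25 matched an annotated transcript within 0.5% of its length, and a match of length is not proof of identity. A single row carried nearly all counts of the most abundant genes: 99.5% to 99.8% for TUBA1B, 99.6% to 99.9% for TUBA1C, 96.3% to 97.6% for TUBB and 93.5% to 95.8% for TUBB4B. In the other genes the counts were spread over rows, and the spread differed between libraries of the same group.

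Of the 52 tubulin rows tested, 0 passed edgeR's test (smallest adjusted p = 0.624), against 0 of all 48163 rows. At an unadjusted p under 0.05 there were 2, while 5.91% of all rows tested were under this p. DESeq2, with 3085 rows called in all, called these same 2. The first, a TUBB row of 2901 bases that matches TUBB-208, had 172 and 427 counts in erianin libraries, against 0 and 0 in DMSO libraries (adjusted p = 0.624 by edgeR and 5.21e-08 by DESeq2). Taking 3 counts per library as the floor for a count of 0, which covers counting error only, the row was at least 109-fold higher in erianin libraries. It held 0.100% and 0.262% of the counts of TUBB there. The second, a TUBB2B row with no derived length, had 0 and 0 counts in erianin libraries, against 62 and 46 in DMSO libraries (adjusted p = 0.625 by edgeR and 4.98e-05 by DESeq2). With the same floor it was at least 16.8-fold lower in erianin libraries, and it held 1.49% and 1.13% of the counts of TUBB2B in DMSO libraries. A count of 0 in a split table can be set by how reads were shared between rows, and this was not tested. The floor does not cover such sharing. Zeros also differed within groups: a TUBB row of 2819 bases had 0 and 146 counts in erianin libraries, against 1886 and 0 in DMSO libraries.

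TUBA4A shows how much a gene's rows can differ between libraries. Its leading row, of 2046 bases, held 86.6% and 56.97% of the gene's counts in erianin libraries, against 92.0% and 80.5% in DMSO libraries. A row of 789 bases, matching the processed transcript TUBA4A-210, had 482 and 2636 counts in erianin libraries, against 0 and 752 in DMSO libraries. A row of 2496 bases, matching the coding transcript TUBA4A-202, had 26 and 988 counts in erianin libraries, against 0 and 14 in DMSO libraries. Erianin replicate 2 had by far the most counts of both rows, and the row of 2046 bases itself had a log2 fold change of -0.06 ± 0.20, against 0.24 ± 0.11 for the whole gene.

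TUBB3, TUBB2A and TUBB2B had rows that traded counts. In TUBB3 the row of 1704 bases had 5400.0 and 2874 counts in erianin libraries, against 3772 and 3795 in DMSO libraries. The row of 1975 bases, which matches an annotated coding transcript, had 1819 and 3879 counts in erianin libraries, against 3120.0 and 2837 in DMSO libraries. These rows went opposite ways between the erianin libraries, and together they held 95.5% to 97.6% of the gene's counts in all 4 libraries. In TUBB2A the row of 2281 bases had 2378 and 20 counts in erianin libraries, against 3069 and 2209 in DMSO libraries. The TUBB2A row of 1910 bases had 783 and 1678 counts in erianin libraries, against 562 and 784 in DMSO libraries. Here erianin replicate 2 stood apart for both rows, whereas the gene as a whole had 130.4 and 142 CPM in erianin libraries. In TUBB2B, 2 rows of 1920 bases went opposite ways between the groups. The first had 2540.0 and 2647 counts in erianin libraries, against 2421 and 2136 in DMSO libraries, and the other had 1071 and 1048 counts in erianin libraries, against 1451 and 1821 in DMSO libraries. A TUBB2B row of 3065 bases had 320.0 and 261 counts in erianin libraries, against 36 and 0 in DMSO libraries, the opposite way to the TUBB2B row at 0 above. None of these rows passed the test, and for such genes only the sum over rows was read.

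**Figure D5:**
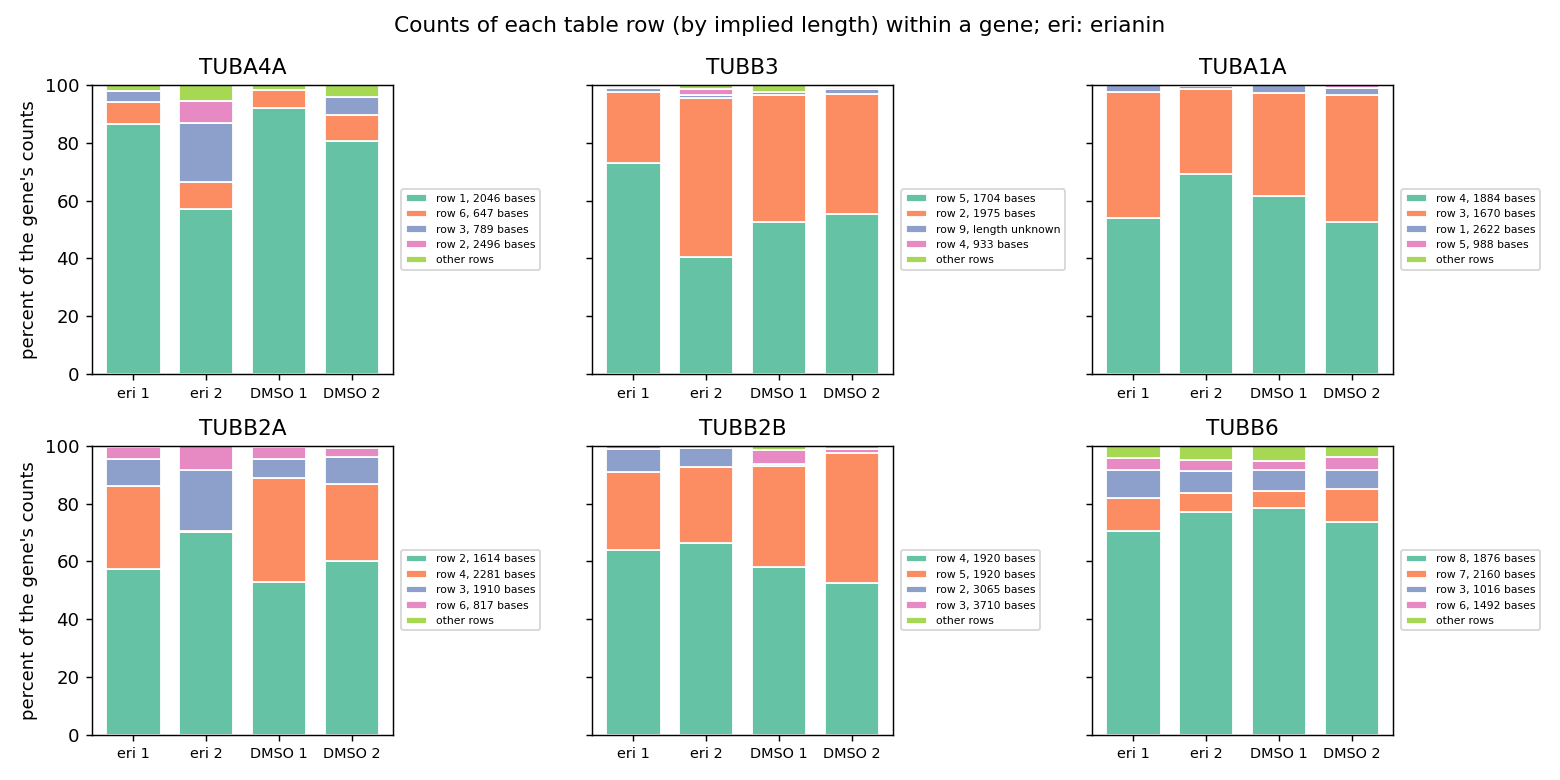
Share of each table row in the counts of its gene (percent), in each library, for the 6 tubulin genes whose counts are spread over several rows; rows are labelled by their number in the gene and the length implied by count and FPKM. The share of the leading TUBA4A row is 56.97% in erianin replicate 2 and 80.5% to 92.0% in the other libraries.

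Rows matching transcripts with a retained intron, a form that often stays in the nucleus, were compared as well. The TUBB4B row of this kind (TUBB4B-202) had 3037 and 2397 counts in erianin libraries, against 2017 and 2337 in DMSO libraries, and a log2 fold change of 0.40 ± 0.20 (adjusted p = 0.9999, edgeR). The TUBA1C row (TUBA1C-203) had 152 and 280 counts in erianin libraries, against 53 and 80 in DMSO libraries, and a log2 fold change of 1.81 ± 0.65 (adjusted p = 0.903, edgeR). Both were without overlap in CPM and neither passed the test. Such rows of TUBA1B, TUBA4A and TUBB6 overlapped between the groups. Over all 52 rows, 12 were higher and 7 lower without overlap, while 17.8% and 18.6% of all rows tested did so.

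Genes that overlap the tubulin genes on the other strand could share reads with them, since the strandedness of the counting is not given in the sources used here. An antisense gene along TUBA1B had 6477 and 9992 counts in erianin libraries, against 7864 and 7699 in DMSO libraries, while TUBA1B itself had 104404 and 103983 counts in erianin libraries, against 104744 and 108134 in DMSO libraries. Among the tubulin pseudogenes, 4 averaged at least 1 CPM: TUBBP1, TUBB2BP1, TUBAP2 and TUBA5P. TUBBP1 had 7.05 and 10.8 CPM in erianin libraries, against 6.98 and 7.77 CPM in DMSO libraries. Adding the pseudogenes to the members left the difference of summed alpha at 0.11 and of summed beta at 0.11.

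Of 13 other tubulin genes listed, 7 could be tested and 0 passed, 4 of them above 0 and 3 below, and their median was 0.13 on the log2 scale. That median turned to -0.15 without erianin replicate 1, -0.26 without DMSO replicate 2 and -0.06 with the GC and length offset. Gamma tubulin TUBG1, which nucleates microtubules, had 168 and 199.7 CPM in erianin libraries, against 153 and 168 CPM in DMSO libraries (log2 fold change 0.19 ± 0.11, adjusted p = 0.589, edgeR). TUBG2, its close copy, had a log2 fold change of 0.13 ± 0.12, and TUBE1, epsilon tubulin of the centriole, -0.45 ± 0.23 (adjusted p = 0.689 and 0.576, edgeR). TUBB4A, a brain beta isotype, had 7.44 and 7.07 CPM in erianin libraries, against 8.68 and 6.91 CPM in DMSO libraries. TUBAL3, TUBB8 and TUBD1 each averaged under 1 CPM.

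The genes of the feedback loop were all measured, and 0 of 13 passed the adjusted threshold. Their log2 fold changes were below 0 in 12 of 13, with a median of -0.32, while 48.7% of all genes tested were above 0. The genes with an unadjusted p under 0.05 were CNOT6 and CNOT7, both deadenylase subunits of CCR4-NOT. Of all genes tested, 5.89% were lower at this p. CNOT7 had 9.48 and 9.09 CPM in erianin libraries, against 12.3 and 14.5 CPM in DMSO libraries (log2 fold change -0.53 ± 0.17, adjusted p = 0.575, edgeR). CNOT6 had 8.48 and 5.67 CPM in erianin libraries, against 11.9 and 10.3 CPM in DMSO libraries (-0.65 ± 0.23, adjusted p = 0.575, edgeR). With the GC and length offset CNOT7 was at -0.25 and CNOT6 at -0.36 (unadjusted p = 0.148 and 0.0484, edgeR). In neither gene did the groups overlap, as in 8 of the 13 that were lower in this way, while 24.4% of all genes tested were.

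TTC5, which recognises the nascent tubulin chain, had 15.7 and 11.7 CPM in erianin libraries, against 13.8 and 15.8 CPM in DMSO libraries (log2 fold change -0.11 ± 0.19, adjusted p = 0.847, edgeR). SCAPER, the adaptor to CCR4-NOT, had 1.07 and 0.792 CPM in erianin libraries, against 1.55 and 1.65 CPM in DMSO libraries (-0.78 ± 0.38, adjusted p = 0.575, edgeR). The TTC5 groups overlapped and those of SCAPER did not. The scaffold CNOT1 had a log2 fold change of -0.34 ± 0.16, CNOT3 0.12 ± 0.10 and CNOT11 -0.04 ± 0.14, and these had the highest CPM of the list. The median GC content of the list was 41.6%, and the 1406 genes of 40 to 45% GC had a median of -0.23. With the GC and length offset the median of the list was -0.04, with 9 of 13 below 0. Without erianin replicate 2 its median was -0.15.

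Enzymes that modify the tails and lysines of tubulin showed no common direction. Of 20 listed, 19 were tested, 0 passed and 0 had an unadjusted p under 0.05, with 9 above 0, 10 below and a median of -0.01 on the log2 scale. Those with the highest CPM were TTLL12, a member of the tubulin tyrosine ligase-like family, SIRT2 and HDAC6, the last 2 being tubulin deacetylases. TTLL12 had 123 and 133 CPM in erianin libraries, against 124 and 123 CPM in DMSO libraries. HDAC6 had 72.3 and 79.5 CPM in erianin libraries, against 69.0 and 73.8 CPM in DMSO libraries. The log2 fold changes were 0.05 ± 0.10 for TTLL12, 0.11 ± 0.11 for SIRT2 and 0.09 ± 0.11 for HDAC6 (adjusted p = 0.852, 0.738 and 0.772, edgeR).

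The 6 ductal markers had a median log2 fold change of 0.20, and 0.01 with the GC and length offset, and 0 of them passed the test. The keratins KRT7, KRT8, KRT18 and KRT19 were higher in erianin libraries without overlap, by 0.14 to 0.24 on the log2 scale. Of all genes tested, 21.7% were higher in this way. With the GC and length offset these keratins were at -0.0045, 0.067, 0.0029 and 0.016 in the same order. The adhesion protein CDH1 was lower without overlap, with 17.6 and 16.4 CPM in erianin libraries, against 19.2 and 18.6 CPM in DMSO libraries (log2 fold change -0.15 ± 0.15, adjusted p = 0.713, edgeR). With the GC and length offset CDH1 was at -0.034. The profile of summed alpha and beta tubulin over the 4 libraries was nearest to those of MRPL58, EIPR1, FDPS, EIF5A and GPANK1, out of 4155 coding genes whose log2 CPM averaged 5 or more, measured by Euclidean distance between centred log2 CPM. EIF5A had 1199 and 1348 CPM in erianin libraries, against 1139 and 1225 CPM in DMSO libraries. With 4 libraries, such likeness is a description of these profiles alone.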

How the data were processed

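RNA from SW1990 cells was sequenced in 2 libraries after erianin and 2 after DMSO, grouped by the sample titles. Per the submitters' processing notes, tools included featureCounts 2.0.1, StringTie 2.2.1, STAR and fastp, and the build was GRCh38; the notes give no roles. Annotation and strandedness were not given in the sources used here. As whole numbers, not normalized, the authors deposited estimated counts in several rows per gene ID whose values look like reads apportioned between transcripts; plain counts had been planned for. The same rows recur in the second deposited table, in FPKM per the file headers. The depth was 59923935 to 63336545 counts per library, 84.9% to 86.9% of the total that count, FPKM and length imply in 1133 genes with 1 row and 1 transcript.

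Rows were summed per gene ID. Of the IDs, 20932 had a symbol and 24725 were in GENCODE 29. Genes were tested with edgeR 4.0.16 in R 4.3.3 (TMM, filterByExpr with minimum count 10, quasi-likelihood F test, group only, Benjamini-Hochberg at 0.05); rows were tested the same way. The biological coefficient of variation was 0.233. Standard errors are the log2 fold change over the square root of F, and 95% intervals use edgeR's moderated degrees of freedom (7.92). Sums and shares were compared by exact permutation; the edgeR fits of each class as 1 feature were added after seeing the data. Floors of 3 counts cover counting error only. The gene-level edgeR step alone was tested on simulated counts. The alternatives were DESeq2 1.42.0, limma 3.58.1 (voom, and log2(FPKM + 1) with a pseudocount of 1), other factors and filters, a replicate block, a GC and length offset, paralog and pseudogene sums, and leaving out each library. All 10 genes are named; other lists are named by counts, their genes with an unadjusted p under 0.05 and the most abundant, and pseudogenes at 1 CPM. Members and lists were chosen with earlier results of these data known. Some coding sequence is not reported here.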

Additional observations from a re-analysis of the deposited data

How the results depend on the processing

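The 10 tubulin genes stayed short of the threshold in every alternative run that kept all 4 libraries. Without erianin replicate 1 the largest log2 fold changes were 0.42 for TUBA1A, 0.32 for TUBA4A and 0.23 for TUBB4B. The number of genes past the threshold, 7 by edgeR, was 21 with DESeq2, 2 with library totals alone, 2 with limma on log2(FPKM + 1), 0 with limma-voom (1673 at an unadjusted p under 0.05), and 24 to 3166 when 1 library was left out. The log2 fold change of each class fitted as 1 feature, added after seeing the data, was 0.0248 to 0.192 for alpha and 0.0365 to 0.171 for beta when 1 library was left out, and beta passed without erianin replicate 1. Rows past the threshold were 0 by edgeR (2846 at an unadjusted p under 0.05) and 3085 by DESeq2. The median log2 fold change of the 10 genes, 0.12, was 0.016 with library totals alone, 0.015 with FPKM, -0.022 with the GC and length offset, and 0.0022 to 0.178 when 1 library was left out. The difference in the beta part, -0.20 percentage points, was 0.38 with the top row of each gene alone, and -0.89 to 0.49 when 1 library was left out (0.30 without erianin replicate 2, 0.49 without DMSO replicate 1).

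Signs turned as follows, on the log2 scale. With library totals alone TUBA1B was -0.022, TUBB2A -0.048, TUBB2B -0.038 and TUBB6 -0.070. With FPKM TUBA1B was -0.021, TUBB2B -0.048 and TUBB6 -0.052. With the GC and length offset TUBA1B was -0.0038, TUBB2A -0.14, TUBB2B -0.097, TUBB3 -0.039, TUBB4B -0.065 and TUBB6 -0.16. When 1 library was left out TUBA1A ran from -0.18 to 0.42, TUBA1B from -0.016 to 0.16, TUBB2A from -0.011 to 0.11, TUBB2B from -0.038 to 0.15 and TUBB4B from -0.0011 to 0.23, each lowest without erianin replicate 2 and highest without erianin replicate 1. TUBB6 ran from -0.0011 without DMSO replicate 1 to 0.060 without DMSO replicate 2. The cause was not tested.

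The replicate numbers are shared between the groups, but their deviations correlated at 0.21 over 8159 genes and with 2 pairs the pairing is not established. With the replicate block 334 genes passed, none of them tubulin genes, and the median of the 10 was 0.12; with the block and the offset 14 passed, the median was -0.022, and TUBA1B was -0.0051, TUBB2A -0.15, TUBB2B -0.097, TUBB3 -0.040, TUBB4B -0.065 and TUBB6 -0.16.

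With 2 libraries a group, exact tests cannot go below 0.333, and the edgeR intervals lean on the spread shared across genes. At 1 dose and 1 time, shorter-lived changes of tubulin mRNA are outside these data. Counts split between near-identical copies limit the values of single genes more than the sums.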
